A study of Schizosaccharomyces pombe with 18 samples.

Results

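The left end of chromosome II of the fission yeast Schizosaccharomyces pombe was followed as 45 annotated genes of the 7018 in the deposited expression table. They are the rows on chromosome II whose midpoint lies within 100 kb of coordinate 1, which is the first base of the assembled chromosome and not the telomere repeat itself. Of 46 rows within that limit, SPBC1348.14c was left out by the selection rule. Apart from that row, which was left out by name, the rule used position and no expression value. Earlier results of these data were known when the members were chosen. The genes include 11 non-coding RNA rows, transporters, enzymes of amide and sulfur compounds, a pair of transcription factors and several pseudogenes.

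RNA was measured by RNA sequencing in 18 cultures of 6 genotypes, with 3 biological replicates each. All strains are h-. The wild type carries ade6-210 and leu1-32, together with ura4-D18 and with arg3-D4 and his3-D1, and the mit1D::Natmx6 and chp2D::KanR strains (mit1D and chp2D) list these same alleles. The strains clr1D::KanMX4, clr2D::his7+ and clr3D::kanMX6 (clr1D, clr2D and clr3D) share leu1-32 and ura4-D18 but list arg3D and his3D, with ade6-210/216?, ade6-216 and ade6-210 in turn. Each genotype is 1 strain, grown as 25 ml cultures in YES medium at 25 °C. Library names put wild type and the clr deletions in one series and mit1D and chp2D in another, so for the latter pair the genotype and the library series cannot be told apart. For the clr deletions the same holds for the genotype and the listed arg3 and his3 alleles. The 5 deletions are all compared with the same 3 wild-type libraries.

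The depth recovered from the deposited FPKM (fragments per kilobase of transcript, scaled to sequencing depth) was 46.5 to 102 M reads in wild type, 35.3 to 82.8 M in the clr deletions and 26.2 to 46.5 M in mit1D and chp2D. Each deleted gene was lower in all 3 of its own libraries than in every wild-type library, at 18.6% of the wild-type mean for clr1, 13.8% for clr3, 0.117% for mit1 and 31.1% for chp2. The clr2 row kept 76.2%, so its level is a weak check of that label, and clr2D stands here for the libraries labelled so.

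Clr1, Clr2, Clr3, Mit1 and Chp2 are the subunits of SHREC, a complex that silences transcription in heterochromatin. Clr3 is a histone deacetylase, Mit1 an ATP-dependent chromatin remodeler and Chp2 an HP1-family protein that binds methylated histone H3. Next to fission yeast telomeres lie heterochromatin and, further inwards, a broader region of low transcription that is rich in genes for transport and metabolism.

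The genes nearest the end gave almost no reads. SPBC1348.15, the annotated gene nearest the end (chrII:304-693, minus strand), was at 0 reads in all 18 libraries, as were SPBC1348.09, annotated as a dehydrogenase gene, and the small RNA gene prl11. SPBC1348.01 (chrII:5224-6829, plus strand) had 12 reads over all libraries together. ftm5 (chrII:7633-9457, plus strand) and ftm6 (chrII:10569-11351, plus strand), which encode proteins with transmembrane helices, had 50 and 22 reads. SPBC1348.04 (chrII:12176-12750, plus strand), annotated as a methyltransferase gene, had 103 reads.

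These genes are also copied at other chromosome ends. In 96.9% of the 50-base windows of the first 25 kb, the same letters occurred at least once more in the RefSeq assembly ASM294v3, against 18.2% from 25 to 50 kb, 8.4% from 50 to 75 kb and 36.7% from 75 to 100 kb. A stretch of ftm5 shows the copying, because its 60 bases occur unchanged at 4 places:
chrII:8718-8777 (plus strand, in ftm5): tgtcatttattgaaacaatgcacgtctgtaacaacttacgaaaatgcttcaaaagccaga
chrI:30420-30479 (plus strand, in SPAC977.01): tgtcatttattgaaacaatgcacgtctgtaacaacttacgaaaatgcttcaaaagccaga
chrI:5566443-5566502 (minus strand, in SPAC750.05c): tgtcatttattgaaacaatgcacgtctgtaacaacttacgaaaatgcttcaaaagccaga
chrII:4504147-4504206 (minus strand, in SPBPB2B2.19c): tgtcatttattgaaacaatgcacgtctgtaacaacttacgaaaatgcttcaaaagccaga
The first line is the left end of chromosome II, and the others lie near the left and right ends of chromosome I and the right end of chromosome II. Each sequence is written on the strand named, from RefSeq ASM294v3, in lower case throughout since no letter differs.

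Copied sequence and low level went together in wild type. Of the 45 genes, 15 had a copy in at least 90% of their windows: 13 rows in the first 29 kb plus SPBPB10D8.05c and SPBPB10D8.06c, transporter genes at 95.11 and 97.89 kb whose copies lie on chromosome II close by. Of these 15, 14 stayed below 1 FPKM in all 18 libraries, with a highest value of 0.371 for SPBC1348.04 in clr1D replicate 1. The remaining one, the non-coding RNA SPNCRNA.287, had a wild-type mean of 1.82 ± 0.624 (SD, n = 3). The 24 genes with no copied window had a median wild-type level of 2.57 FPKM, and 8 of them were below 1. Outside this end, 173 of 208 wholly copied genes were below 1 FPKM, with a median of 0.0845, against a median of 31.3 for 6319 genes with no copied window. Only 30 of these 208 genes are protein-coding, and all 30 were below 1 FPKM, with a median of 0.0108. The handling of reads with several equal matches is not stated in the labels or file headers, and its part in these low levels was not tested.

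**Figure D1:**
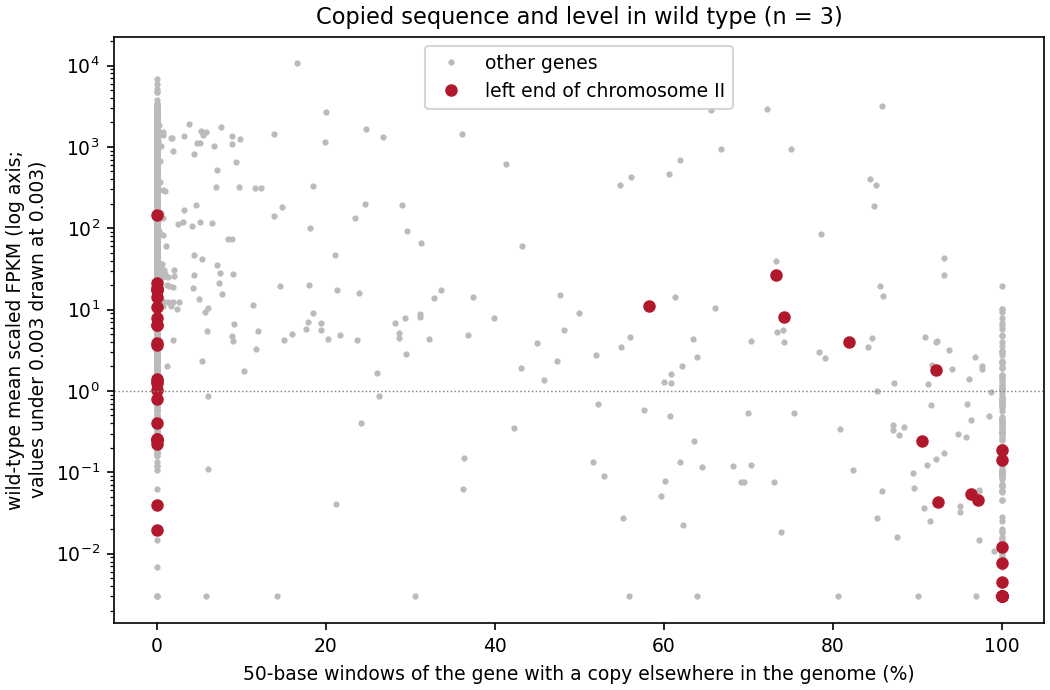
Wild-type mean level (scaled FPKM, log axis, n = 3) of each gene against the share of its 50-base windows with an exact copy elsewhere in the assembly (%). Red points are genes at the left end of chromosome II and grey points are all other matched genes. All 10 red points at 100% lie at or below 0.188 FPKM, and red points above 10 FPKM lie at 0% or between 58.3% and 73.3%.

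From the end inwards the level rose in steps. The 11 genes of the first 25 kb had a median wild-type level of 0.0540 FPKM, the 8 genes from 25 to 50 kb 0.258, the 17 genes from 50 to 75 kb 3.89 and the 9 genes from 75 to 100 kb 4.01. Among all 45 genes, 22 had a wild-type mean below 1 FPKM and 9 had one of at least 10. The highest was aes1 at 70.73 kb, a gene of the phenazine biosynthesis family, at 146 ± 14.7 (SD, n = 3). In 21 genes no library of any genotype reached 1 FPKM, so for these the deletions can be compared only on a few reads.

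**Figure D2:**
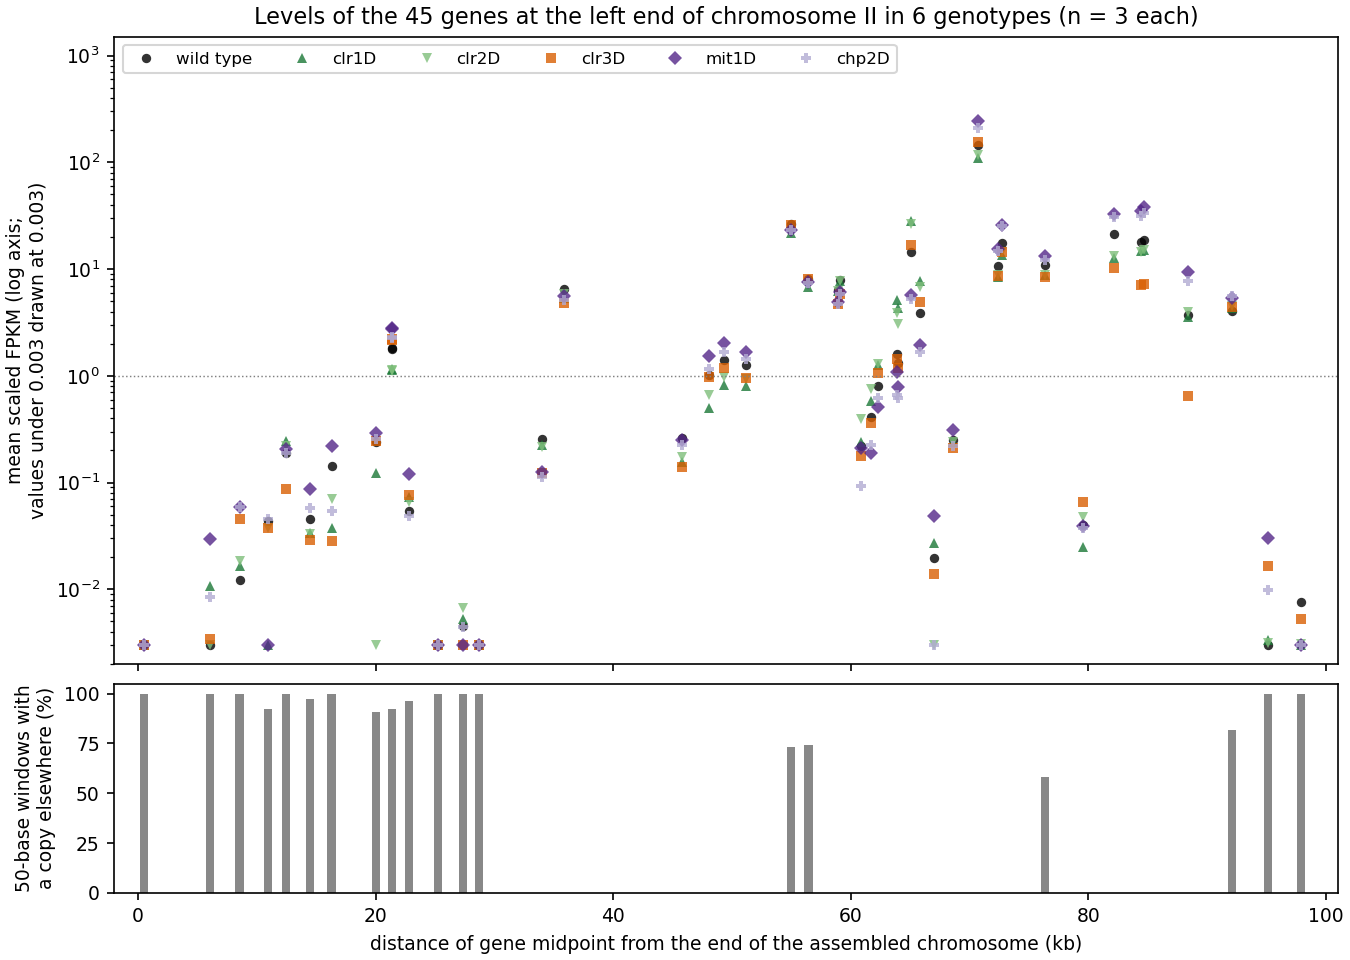
Mean scaled FPKM (log axis, n = 3 per genotype, means under 0.003 drawn at 0.003) of the 45 genes against the distance of their midpoint from coordinate 1 (kb), with the share of copied 50-base windows (%) below. Apart from the overlapping rows SPNCRNA.287 and SPNCRNA.1300, no gene of the first 33 kb exceeded 0.371 FPKM in any library, and aes1 stands highest in every genotype.

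None of the clr deletions gave a gene called higher here in the fit without a block, and each gave genes called lower. For the test, log2(scaled FPKM + 1) was fitted with limma over all 18 libraries and 6950 genes, and a gene was called at an adjusted p under 0.05. Of the 42 genes with any read, 0 were called higher and 8 lower in clr1D, where 9.08% of all genes fitted were higher and 7.88% lower. In clr2D 0 were higher and 6 lower, against 7.25% and 4.94% of all genes. In clr3D 0 were higher and 8 lower, against 14.2% and 13.6%. At an unadjusted p under 0.05 limma gave 4 higher genes in clr1D, 3 in clr2D and 0 in clr3D, and limma voom on recovered reads called 0, 0 and 1. The single voom call here was ftm5. Of all 6950 genes, limma voom called 753 higher in clr1D, 620 in clr2D and 1062 in clr3D. The share of all genes at the unadjusted threshold was not counted.

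The replicate numbers tie the wild-type and clr libraries together, and with the number as a block 4 genes were called higher in clr1D and 2 in clr2D; in clr3D the block left 0 higher and 8 lower. With the same block, 759 of all 6950 genes were higher in clr1D, 640 in clr2D and 1185 in clr3D, where 1098 were lower. The genes higher under the block lay between 61 and 66 kb: cmt2 in both deletions, with SPNCRNA.289, SPNCRNA.1303 and SPNCRNA.1304 in clr1D and SPBPB21E7.10 in clr2D. Without clr1D replicate 3, the same 4 genes were called higher in clr1D with no block, where 541 of all 6950 genes were higher.

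In mit1D 9 of the 42 genes were called higher and 4 lower, where 14.2% of all genes fitted were higher and 12.1% lower. In chp2D 4 were higher and 4 lower, against 11.3% and 10.2%. All these counts, also those of the clr deletions and those by distance, take each row as a gene of its own, as do the shares of all genes. Overlapping rows are not separate measurements. Called together were fah1 and grt1 in clr1D, clr2D and mit1D, and SPBPB10D8.02c and SPNCRNA.1307 in clr3D and mit1D. So were eno102 and SPNCRNA.1302 in clr3D, mit1D and chp2D. The share of all genes called higher or lower depends on scaling: with FPKM as deposited the whole table gave 971 higher and 253 lower genes in clr1D against 631 and 548 with scaling, 577 and 209 against 504 and 343 in clr2D, 722 and 1119 against 984 and 840 in mit1D, and 527 and 1091 against 788 and 711 in chp2D. The counts of higher genes at this end were 0, 0, 0, 9 and 3 in clr1D, clr2D, clr3D, mit1D and chp2D with the deposited values.

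The other ends gave calls in the higher direction in the same fits. In clr3D 25.5% of the fitted genes within 100 kb of the left end of chromosome I were higher, 37% at its right end and 48.6% at the right end of chromosome II, against 0% at the left end of chromosome II. In clr1D these shares were 19.6%, 30.4%, 25.7% and 0%. In clr2D they were 19.6%, 23.9%, 28.6% and 0%. All shares in this paragraph come from the fit without the replicate block, and the other ends were not counted with it. With the block, cmt2, SPNCRNA.289, SPNCRNA.1303 and SPNCRNA.1304 at this end were higher in clr1D, and cmt2 and SPBPB21E7.10 in clr2D. With genes copied in at least 90% of their windows set aside, 0 of 28 genes at this end were higher in each clr deletion, against 8 of 35, 14 of 40 and 12 of 22 at the other ends in clr3D. In mit1D the share at this end, 21.4%, lay beside 21.6%, 17.4% and 14.3% at the others. With the same copied genes set aside, it was 32.1% (9 of 28), against 17.1%, 12.5% and 4.55%. In chp2D the share was 9.52% at this end, and 15.7%, 17.4% and 14.3% at the others. With the copied genes set aside, the chp2D share was 14.3%, against 11.4%, 12.5% and 4.55%. Shares called lower at this end were 19% in clr1D, 14.3% in clr2D, 19% in clr3D and 9.52% in both mit1D and chp2D. At the other ends, in the same order, they were 7.84%, 6.52% and 2.86% in clr1D and 5.88%, 4.35% and 2.86% in clr2D. They were 1.96%, 6.52% and 0% in clr3D, 25.5%, 8.7% and 0% in mit1D, and 29.4%, 8.7% and 2.86% in chp2D. Further in on the same arm, from 100 to 200 kb, 21.7% of 60 genes were higher in clr1D, 18.3% in clr2D, 10% in clr3D, 31.7% in mit1D and 30% in chp2D. The difference between ends, and between the stretches of the arm, was not tested.

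**Figure D3:**
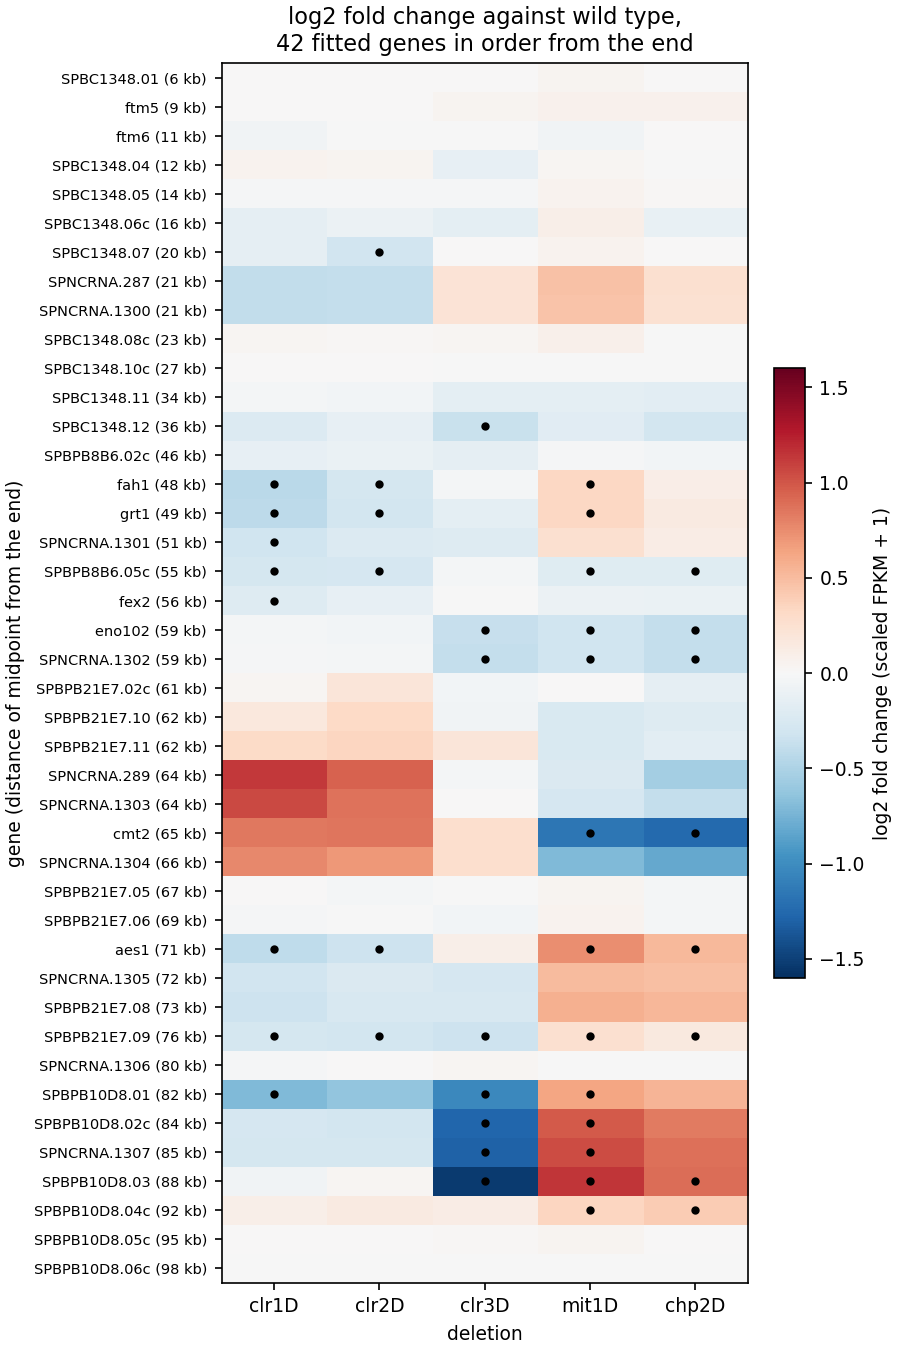
Log2 fold change against wild type on the log2(scaled FPKM + 1) scale for the 42 fitted genes (rows, in order from the end) in the 5 deletions (columns); dots mark an adjusted p under 0.05 in limma. Dots in the first 46 kb are limited to SPBC1348.07 in clr2D and SPBC1348.12 in clr3D, and dotted cells with a log2 fold change beyond 1 in either direction are those of cmt2 in mit1D and chp2D, of the 4 rows from 82 to 88 kb in clr3D, and of SPNCRNA.1307 and SPBPB10D8.03 in mit1D.

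Toward the inner side of the region, 4 neighbouring rows with midpoints from 82.13 to 88.38 kb fell in clr3D and rose in mit1D. They are SPBPB10D8.01 (chrII:80899-83357, plus strand), a cysteine transporter gene; SPBPB10D8.02c (chrII:83229-85631, minus strand), an arylsulfatase gene, whose product class releases sulfate from organic esters; the non-coding RNA SPNCRNA.1307 (chrII:83799-85528, plus strand), which lies wholly inside SPBPB10D8.02c on the other strand; and the pseudogene SPBPB10D8.03 (chrII:87727-89029, plus strand). None of them has a copied window.

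SPBPB10D8.03 stood at 3.03, 4.45 and 3.70 FPKM in wild-type replicates 1, 2 and 3, and at 0.359, 1.05 and 0.526 in clr3D. It stood at 9.27, 9.03 and 9.73 in mit1D and at 8.21, 7.32 and 7.62 in chp2D. All clr3D libraries were thus below all wild-type libraries, and all mit1D and chp2D libraries above them, with no overlap. The mean was 5.78-fold lower in clr3D (log2 fold change -1.53 ± 0.18 SE, limma adjusted p = 3.12e-05), 2.51-fold higher in mit1D (1.14 ± 0.18, adjusted p = 0.000428) and 2.07-fold higher in chp2D (0.89 ± 0.18, adjusted p = 0.00321). In clr1D the libraries read 2.93, 4.52 and 3.23, and in clr2D 3.24, 5.51 and 3.01, both overlapping wild type. These 3 calls held in each of 14 alternatives run for each of them.

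SPBPB10D8.02c stood at 12.4, 24.4 and 17.1 FPKM in wild type and at 4.66, 11.6 and 5.16 in clr3D. It stood at 34.0, 34.6 and 37.2 in mit1D and at 32.5, 30.9 and 31.1 in chp2D. The clr3D libraries again lay below and the mit1D and chp2D libraries above every wild-type library. The mean was 2.52-fold lower in clr3D (-1.27 ± 0.31, limma adjusted p = 0.00743) and 1.96-fold higher in mit1D (0.98 ± 0.31, adjusted p = 0.0305), and the difference in chp2D did not pass (0.83 ± 0.31, adjusted p = 0.0731). The chp2D difference did pass in the fit of only the groups compared (adjusted p = 0.0466), with limma voom (0.026) and without wild-type replicate 2 (0.0392). In a fit of only the groups compared the clr3D call was lost (adjusted p = 0.0667). The mit1D call was lost when any of mit1D replicates 1, 2 and 3 or wild-type replicates 1 and 3 was left out, with adjusted p from 0.0623 to 0.12.

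SPNCRNA.1307 gave 12.6, 25.5 and 17.8 FPKM in wild type, 4.70, 11.6 and 5.38 in clr3D and 37.1, 37.4 and 39.9 in mit1D. It had 29240 reads over all libraries beside 38641 for SPBPB10D8.02c. No label or header says whether counting used strand, so reads of this RNA and of the arylsulfatase gene cannot be told apart. Its fall in clr3D (-1.29 ± 0.32, limma adjusted p = 0.00703) and rise in mit1D (1.05 ± 0.32, adjusted p = 0.0239) are therefore no separate result, and they were lost in the same alternatives (adjusted p = 0.0641 in clr3D, and from 0.0519 to 0.0973 in mit1D).

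SPBPB10D8.01 stood at 17.1, 25.9 and 20.3 FPKM in wild type, at 6.71, 14.9 and 9.01 in clr3D and at 32.4, 33.1 and 32.5 in mit1D. It stood at 10.1, 16.0 and 11.8 in clr1D, at 11.1, 16.6 and 12.2 in clr2D and at 30.7, 31.5 and 30.5 in chp2D. Every clr library lay below every wild-type library, and every mit1D and chp2D library above. The transporter gene was 2.07-fold lower in clr3D (-1.03 ± 0.22, limma adjusted p = 0.0033) and 1.67-fold lower in clr1D (-0.70 ± 0.22, adjusted p = 0.0415). In clr2D it was 1.59-fold lower and did not pass (-0.63 ± 0.22, adjusted p = 0.0787), but passed with the replicate block (adjusted p = 0.00902) and with limma voom (0.0323). In mit1D it was 1.55-fold higher, at the edge of the threshold (0.63 ± 0.22, adjusted p = 0.0499), and chp2D did not pass (0.55 ± 0.22, adjusted p = 0.0913) except in the fit of only the groups compared (0.0403) and with limma voom (0.0418), among the fits with no block. The clr1D call was lost without clr1D replicate 1 or 3 or wild-type replicate 2 or 3 (adjusted p from 0.0862 to 0.146). The mit1D call was lost without any single mit1D library or wild-type replicate 1 or 3, with a pseudocount of 0.1 and with quantile normalization (adjusted p from 0.0573 to 0.166). In the fit of only the groups compared, the clr1D and clr3D calls were lost (adjusted p = 0.0919 and 0.0596).

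In all 4 groups of the first library series, replicate 2 was the highest library for each of these 4 rows. Within replicate 2 alone, SPBPB10D8.02c read 24.4 in wild type and 11.6 in clr3D, and within replicate 1 it read 12.4 and 4.66. The fall in clr3D was thus present within each replicate number, while the spread between numbers inside a group was as wide as 12.4 to 24.4.

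**Figure D4:**
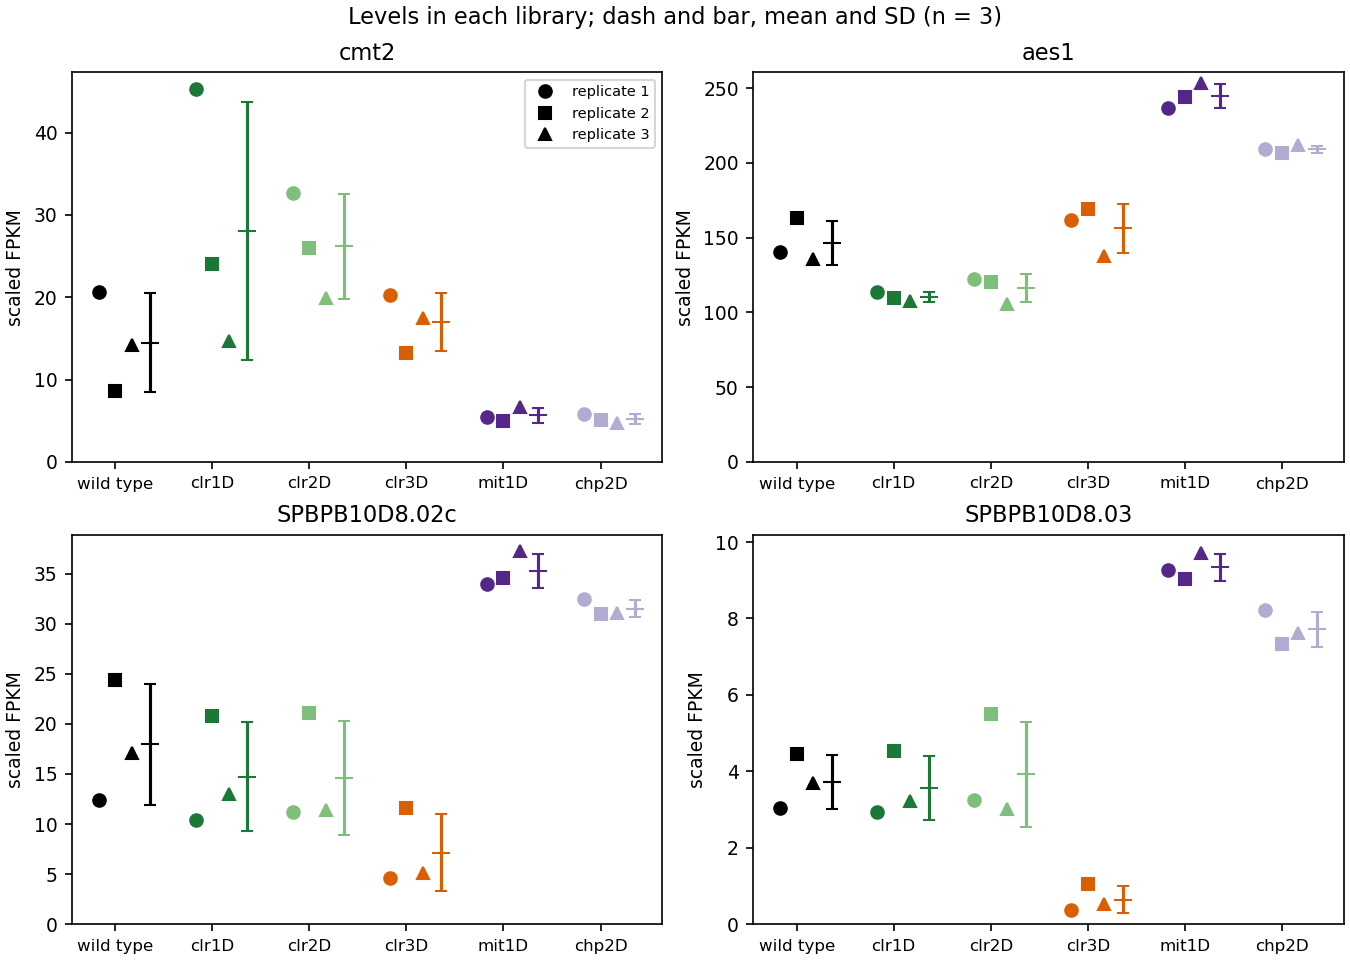
Scaled FPKM of cmt2, aes1, SPBPB10D8.02c and SPBPB10D8.03 in each library (points, shape by replicate number) with mean and SD (dash and bar, n = 3) for the 6 genotypes. SPBPB10D8.03 is between 0.359 and 1.05 in clr3D and between 7.32 and 9.73 in mit1D and chp2D, and cmt2 shows its widest spread in clr1D, from 14.7 to 45.3.

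Around 65 kb the direction was the other way round in mit1D and chp2D, but not in clr3D. cmt2 (chrII:64487-65620, minus strand) encodes a catechol O-methyltransferase, an enzyme class that methylates hydroxyl groups of catechols. It stood at 20.6, 8.65 and 14.3 FPKM in wild type, at 5.40, 4.92 and 6.65 in mit1D and at 5.85, 5.09 and 4.74 in chp2D. All 6 libraries of mit1D and chp2D lay below all 3 of wild type. The mean was 2.56-fold lower in mit1D (-1.15 ± 0.33, limma adjusted p = 0.0185) and 2.77-fold lower in chp2D (-1.24 ± 0.33, adjusted p = 0.0144). The mit1D call was lost without wild-type replicate 1 (adjusted p = 0.0798), wild-type replicate 3 (0.0543) or mit1D replicate 2 (0.0669), and the chp2D call without wild-type replicate 1 (0.0641). With limma voom both were lost (adjusted p = 0.108 in mit1D and 0.128 in chp2D).

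In clr1D cmt2 stood at 45.3, 24.0 and 14.7 FPKM, and in clr2D at 32.6, 26.0 and 19.9. Both ranges overlap wild type, although within each replicate number the deletion was higher than wild type. The means were 1.93-fold and 1.81-fold higher, and neither passed without the block (0.84 ± 0.33 with adjusted p = 0.0958, and 0.86 ± 0.33 with adjusted p = 0.106). With the replicate number as a block both passed in limma (adjusted p = 0.0378 and 0.0416). The clr1D difference also passed without clr1D replicate 3 (adjusted p = 0.0183) and without wild-type replicate 1 (0.0452). clr3D, at 20.2, 13.2 and 17.4, overlapped wild type (0.27 ± 0.33, adjusted p = 0.59).

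SPNCRNA.1304 (chrII:65390-66274, plus strand), a non-coding RNA that shares 231 bases with the opposite strand of cmt2, gave 5.33, 2.45 and 3.88 FPKM in wild type, 12.4, 6.31 and 4.46 in clr1D and 1.49, 2.05 and 2.24 in mit1D. Its clr1D libraries overlapped wild type and its mit1D libraries lay below. Neither difference passed without the block (0.77 ± 0.29 with limma adjusted p = 0.0834, and -0.71 ± 0.29 with adjusted p = 0.0889). The clr1D difference passed with it (adjusted p = 0.0346) and without clr1D replicate 3 (0.0266), and the mit1D difference passed without wild-type replicate 2 (0.0434). Next to it, the 327 bases of SPNCRNA.289 lie wholly inside the 685 bases of SPNCRNA.1303, so their values are not independent. SPNCRNA.289 stood at 3.17, 0.604 and 1.05 in wild type and at 10.1, 3.69 and 1.76 in clr1D, a difference that passed only with the block (1.13 ± 0.47, adjusted p = 0.112 without and 0.02 with it) or without clr1D replicate 3 (0.0336) or, just inside the threshold, wild-type replicate 1 (0.05). For cmt2, SPNCRNA.1304, SPNCRNA.289 and SPNCRNA.1303 alike, replicate 1 was the highest library in wild type, clr1D, clr2D, clr3D and also chp2D. In mit1D replicate 1 was highest for none of them.

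aes1 (chrII:70156-71310, plus strand), the most abundant transcript of the region, stood at 140.1, 163 and 136 FPKM in wild type. It stood at 114, 109.9 and 107 in clr1D, at 123, 121 and 106 in clr2D and at 162, 169 and 138 in clr3D. In mit1D it reached 237, 244 and 253, and in chp2D 209, 207 and 212. The clr1D and clr2D libraries lay below and the mit1D and chp2D libraries above every wild-type library, while clr3D overlapped. aes1 was 1.33-fold lower in clr1D (-0.40 ± 0.08, limma adjusted p = 0.00186), 1.26-fold lower in clr2D (-0.33 ± 0.08, adjusted p = 0.0104), 1.67-fold higher in mit1D (0.74 ± 0.08, adjusted p = 8.18e-06) and 1.43-fold higher in chp2D (0.52 ± 0.08, adjusted p = 0.000271). In clr3D it did not pass (0.09 ± 0.08, adjusted p = 0.403). The clr2D call was lost in the fit of only the groups compared (adjusted p = 0.102).

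aes1 and SPBPB10D8.03 both rose in mit1D and chp2D, while aes1 fell in clr1D and clr2D and SPBPB10D8.03 in clr3D, so the 250 bases before each RefSeq gene start are shown (ASM294v3, plus strand):
aes1, chrII:69882-70131: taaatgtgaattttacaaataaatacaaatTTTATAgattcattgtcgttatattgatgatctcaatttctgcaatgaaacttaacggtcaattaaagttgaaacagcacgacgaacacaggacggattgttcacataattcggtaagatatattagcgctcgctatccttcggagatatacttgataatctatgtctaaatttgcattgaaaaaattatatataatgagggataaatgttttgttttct
SPBPB10D8.03, chrII:87477-87726: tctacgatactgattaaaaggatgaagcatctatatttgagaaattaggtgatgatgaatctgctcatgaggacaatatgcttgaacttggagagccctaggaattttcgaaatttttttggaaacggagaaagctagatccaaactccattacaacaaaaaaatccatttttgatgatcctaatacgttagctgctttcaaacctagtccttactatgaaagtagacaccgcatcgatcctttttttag
Capitals mark a match to TATAAA, the letters of a TATA box, which lies on the minus strand of the aes1 window. TATAAA was searched on both strands with TGACGT, the core of sites of Atf1-type factors, and GATAAG, the core of GATA-factor sites. The aes1 window held 1 match to TATAAA and none to the others, and the SPBPB10D8.03 window held none of the 3. Of all 12605 upstream windows of this length in the assembly, 40.9% held TATAAA, 4.8% TGACGT and 10.1% GATAAG.

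Nearer the end, from 47 to 52 kb, fah1 and grt1 were weakly expressed and fell in clr1D and clr2D and rose in mit1D. fah1 (chrII:47056-49071, plus strand) is annotated as an acetamidase gene, and grt1 (chrII:47369-51220, minus strand) encodes a transcription factor. fah1 stood at 1.10, 0.947 and 1.01 FPKM in wild type, at 0.623, 0.362 and 0.515 in clr1D, at 0.676, 0.627 and 0.694 in clr2D and at 1.35, 1.70 and 1.57 in mit1D. The clr1D and clr2D libraries lay below and the mit1D libraries above all of wild type. It was 2.03-fold lower in clr1D (-0.43 ± 0.07, limma adjusted p = 0.000746), 1.53-fold lower in clr2D (-0.28 ± 0.07, adjusted p = 0.022) and 1.51-fold higher in mit1D (0.33 ± 0.07, adjusted p = 0.00387). clr3D at 0.897, 1.03 and 1.01 overlapped wild type.

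grt1 stood at 1.51, 1.23 and 1.51 FPKM in wild type, at 0.962, 0.672 and 0.808 in clr1D, at 1.04, 0.812 and 1.07 in clr2D and at 1.89, 2.22 and 2.01 in mit1D, with no overlap with wild type in any of the 3. It fell in clr1D (-0.41 ± 0.08, limma adjusted p = 0.00179) and in clr2D (-0.29 ± 0.08, adjusted p = 0.0252) and rose in mit1D (0.33 ± 0.08, adjusted p = 0.00574). The annotations of fah1 and grt1 overlap by 1703 bases on opposite strands, so their reads cannot be told apart there. The clr2D calls of both were lost without clr2D replicate 2, wild-type replicate 1 or wild-type replicate 3, in the fit of only the groups compared and among genes of at least 1 FPKM in 3 libraries (adjusted p from 0.0514 to 0.118). SPNCRNA.1301, which overlaps grt1, was lower in clr1D (-0.32 ± 0.10, adjusted p = 0.0366), a call that 7 of 14 alternatives lost.

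Smaller changes were spread over genes of amino acid and ion handling, named here after their values were seen. SPBPB21E7.09 at 76.35 kb, an L-asparaginase gene, passed in all 5 deletions. It stood at 11.1, 10.4 and 11.3 FPKM in wild type and between 8.10 and 9.28 in the 9 clr libraries, and between 12.1 and 14.0 in the 6 libraries of mit1D and chp2D. All clr libraries were below and all mit1D and chp2D libraries above wild type, with log2 fold changes of -0.28, -0.29 and -0.33 in clr1D, clr2D and clr3D, 0.26 in mit1D and 0.16 in chp2D (SE 0.05 each, limma adjusted p from 0.000271 to 0.0393). The chp2D call was lost in 9 of 14 alternatives. SPBPB21E7.09 has copies near the right end of chromosome I over 58.3% of its windows.

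A further L-asparaginase gene, SPBPB8B6.05c at 54.95 kb, stood at 25.9, 27.4 and 26.9 FPKM in wild type, with lower values in clr1D, clr2D, mit1D and chp2D. It fell by between 1.15-fold and 1.23-fold in those 4 (log2 fold changes -0.28, -0.27, -0.19 and -0.20, SE 0.04 each, limma adjusted p from 0.000327 to 0.00516) and did not pass in clr3D. Its neighbour fex2, whose product exports fluoride from the cell, was lower in clr1D (-0.21 ± 0.06, adjusted p = 0.0213), a call lost in 5 of 14 alternatives. Both genes have copies near the left end of chromosome I, over 73.3% and 74.2% of their windows.

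eno102 (chrII:58136-59704, minus strand), an enolase gene and so annotated for a step of glycolysis, and SPNCRNA.1302, which lies wholly inside it on the other strand, had almost the same reads, 8189 and 7995 over all libraries. eno102 stood at 5.37, 6.94 and 6.94 FPKM in wild type, at 4.47, 4.96 and 4.77 in clr3D, at 5.04, 4.67 and 5.03 in mit1D and at 4.63, 4.83 and 4.55 in chp2D. All these libraries lay below wild type. The falls were 1.36-fold, 1.31-fold and 1.37-fold (-0.37, -0.32 and -0.38, SE 0.10 each, limma adjusted p = 0.0102, 0.0219 and 0.0105), and 1, 5 and 2 of 14 alternatives lost them. SPBC1348.12 at 35.85 kb, annotated as a transcription factor gene, was 1.34-fold lower in clr3D (-0.35 ± 0.10, limma adjusted p = 0.0176), a call lost in 3 of 14 alternatives. The transporter gene SPBPB10D8.04c at 92.12 kb was 1.34-fold higher in mit1D (0.35 ± 0.08, limma adjusted p = 0.00511) and 1.40-fold higher in chp2D (0.40 ± 0.08, adjusted p = 0.00265). It has copies close by on chromosome II over 81.9% of its windows.

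In the limma fit of log2(scaled FPKM + 1) over all 18 libraries with no block, a single gene of the copied first 29 kb was called against wild type. SPBC1348.07 (chrII:19395-20606, plus strand), an uncharacterized gene, stood at 0.282, 0.208 and 0.236 FPKM in wild type from 65 reads, and at 0 in all 3 clr2D libraries. A count of 3 reads over the clr2D group would be 0.0141 FPKM, so the wild-type mean was at least 17.1-fold higher. The limma difference was -0.31 ± 0.08 (adjusted p = 0.0166), and it was lost without wild-type replicate 1 (0.0531). In clr1D the gene stood at 0.151, 0.121 and 0.0957 and did not pass (-0.15 ± 0.08, adjusted p = 0.224). clr3D, mit1D and chp2D, at 0.108 to 0.338, overlapped wild type.

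ftm5 gave 0.0138, 0.0121 and 0.0108 FPKM in wild type, 0.0556, 0.0529 and 0.0289 in clr3D, 0.0572, 0.0375 and 0.0837 in mit1D and 0.0515, 0.0645 and 0.0618 in chp2D. These rest on 5, 13, 12 and 9 reads per group. All libraries of those 3 deletions lay above all of wild type, while on the log2(FPKM + 1) scale none passed (limma adjusted p = 0.561, 0.396 and 0.414). With limma voom on the reads all 3 passed (adjusted p = 0.00333, 0.000995 and 0.00145), and in chp2D it also passed with quantile normalization (0.0194). ftm6 had 8 reads in wild type and 0 in clr1D and mit1D, and limma voom called it lower in clr1D (adjusted p = 0.0314). SPBC1348.06c, with 21 reads in wild type and 3 in clr3D, was called lower in clr3D by limma voom (adjusted p = 0.0395). SPBC1348.04 ranged from 0.028 to 0.371 FPKM over all libraries with every group overlapping wild type.

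The rows SPNCRNA.287 and SPNCRNA.1300 at 21 kb overlap by 642 bases and had equal read numbers in all 18 libraries, 1126 in each, so they count as 1 measurement. SPNCRNA.287 stood at 1.21, 1.78 and 2.46 FPKM in wild type, 0.743, 0.912 and 1.81 in clr1D, 0.774, 1.16 and 1.48 in clr2D, 2.01, 2.61 and 2.06 in clr3D and 2.62, 2.93 and 2.93 in mit1D. Each clr group overlapped wild type and no difference from wild type passed in the fit of all libraries. Within each replicate number, clr1D was lower than wild type, and that difference passed without clr1D replicate 3 (limma adjusted p = 0.0246) and with a block in the first library series only (0.0216), but not with the planned block. The mit1D libraries lay above all of wild type, and their difference passed without wild-type replicate 3 (0.0297). SPNCRNA.287 was higher in clr3D than in the mean of clr1D and clr2D (0.61 ± 0.15, limma adjusted p = 0.00584).

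Between the deletions, clr3D differed from the mean of clr1D and clr2D in 14 of the 42 genes, 8 higher and 6 lower, where 39.7% of all genes fitted differed, 20% higher and 19.7% lower. With FPKM as deposited the whole table gave 839 higher and 1685 lower genes here, against 1389 and 1371 with scaling. With overlapping rows counted once it differed in 9. SPBPB10D8.03 was lower in clr3D (-1.52 ± 0.16, limma adjusted p = 5.95e-06), as was SPBPB10D8.02c (-0.99 ± 0.27, adjusted p = 0.00966; lost without clr3D replicate 1 or 3). aes1 and fah1 were higher in clr3D (0.46 ± 0.07, adjusted p = 8.3e-05, and 0.32 ± 0.06, adjusted p = 0.000889).

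clr3D differed from mit1D in 16 genes, 3 higher and 13 lower, against 43.9% of all genes, 21.3% higher and 22.7% lower, and this comparison crosses the library series. With FPKM as deposited the whole table gave 1665 higher and 1181 lower genes, against 1477 and 1575 with scaling. The largest difference was that of SPBPB10D8.03 (-2.67 ± 0.18, limma adjusted p = 5.82e-08), followed by the SPNCRNA.1307 and SPBPB10D8.02c rows (-2.34 ± 0.32 and -2.25 ± 0.31, adjusted p = 4.41e-05 and 5.72e-05) and SPBPB10D8.01 (-1.65 ± 0.22, adjusted p = 4.23e-05). The 3 higher genes were cmt2 (1.42 ± 0.33, adjusted p = 0.00298), SPNCRNA.1304 (0.98 ± 0.29, adjusted p = 0.0136) and SPBPB8B6.05c (0.15 ± 0.04, adjusted p = 0.00957).

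clr1D and clr2D differed in 0 of the 42 genes by limma (0.446% of all genes, 0.101% higher and 0.345% lower), in 2 at an unadjusted p under 0.05 and in 1, SPBC1348.07, by limma voom. mit1D and chp2D differed in 0 by limma (0.173% of all genes, 0.101% higher and 0.0719% lower), in 4 at an unadjusted p under 0.05 and in 0 by limma voom. Over all genes limma voom called 8 higher and 26 lower in clr1D against clr2D, and 3 and 2 in mit1D against chp2D. Unadjusted shares of all genes were not counted. The counts at this end do not show that the pairs act alike.

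By distance, the clr deletions called 0, 2, 4 and 2 genes lower in clr1D in the successive bins of 25 kb, 1, 2, 2 and 1 in clr2D and 0, 1, 2 and 5 in clr3D. In mit1D 0, 2, 1 and 6 genes were higher and 0, 0, 4 and 0 lower. Across the 42 genes, Spearman's rho of the absolute log2 fold change with distance was 0.13 in clr1D, 0.19 in clr2D, 0.32 in clr3D, 0.36 in mit1D and 0.48 in chp2D, as a description without a test, since the genes share libraries and genes near the end have lower levels. The urea transporter gene SPBPB8B6.02c, with means between 0.139 and 0.260 FPKM in the 6 genotypes, was not called in the fit of all libraries, but all 9 clr libraries lay below all 3 of wild type and limma voom called it lower in clr3D (adjusted p = 0.0248). Among the genes called in no deletion in any fit run were the pseudogenes SPBC1348.11, between 0.112 and 0.256, and SPBPB21E7.06, between 0.213 and 0.309.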

How the data were processed

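Total RNA of 18 cultures was measured after ribosomal RNA removal with a stranded library kit, per the labels' protocols. The authors deposited 1 FPKM value per gene and library for 7018 genes with coordinates and transcript lengths, per the file headers. The submitters' processing notes name GSNAP and the build ASM294v2. Counting program, strand setting and treatment of reads with several matches: not given in the sources used here. The table holds 3 further sample columns that were not used here. FPKM multiplied by length gave whole reads (100% within 0.1 read), so counting depth could be recovered; summed over genes it came to 101.51 to 101.64%.

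Median ratios over the 6484 genes of at least 1 FPKM in all libraries gave scale factors of 0.971 to 1.067. The values log2(scaled FPKM + 1) went into limma (version 3.58.1, under R 4.3.3; trended eBayes), 1 coefficient per genotype, with no filter on low values except that 68 genes at 0 throughout were left out. Tests were 2-sided, with Benjamini-Hochberg adjustment over 6950 genes, and were tried on simulated data. The added 1 understates changes of low genes. Folds are ratios of means; log2 fold changes carry their SE. Same-numbered libraries of wild type and the clr deletions deviated together (correlations 0.257 to 0.72), and their names share a stem, so they were taken as paired; those of mit1D and chp2D did not (-0.168 to 0.141).

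Of the 45 genes, 43 matched RefSeq ASM294v3, 42 of them sharing a boundary, which also gave names and sequences; the deposited table supplied gene coordinates. The members and lists were chosen with earlier results of these data known. Named by rule were members called with a 2-fold ratio of means, the 5 nearest the end, members overlapping these and the most abundant one; others were named after their values were seen. Alternatives covered scaling, pseudocount (0.1), a low-value filter, the samples fitted, the replicate block, limma voom and leaving out each library. Tables were made in Python 3.11.15 (pandas 2.3.3; NumPy 2.4.6) and figures in matplotlib 3.10.9.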

Additional observations from a re-analysis of the deposited data

How the results depend on the processing

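Counts of called genes moved by over 1.5 times in some settings; the cause was not tested. In fits of only the groups compared, 7 genes were higher in chp2D, and 5, 3, 2 and 2 were lower in clr1D, clr2D, clr3D and mit1D. Over all 6950 genes, such fits called 739 higher in chp2D and 646 lower in mit1D, against 788 and 840 in the main fit. With a filter of at least 1 FPKM in 3 libraries, 3 were lower in clr2D, where 334 of all 6693 genes kept were lower. With quantile normalization 2 were lower in mit1D and 2 in chp2D, where 1078 and 873 of all 6950 genes were lower. With limma voom 7 were higher in chp2D, 1 higher in clr3D, 2 lower in mit1D, and 1 differed between clr1D and clr2D. Over all genes limma voom called 750 higher in chp2D, 1062 higher in clr3D and 797 lower in mit1D. With overlapping rows counted once, a choice added after seeing the data, clr3D differed from the mean of clr1D and clr2D in 9 genes. With the replicate block 4, 2 and 8 genes were higher in clr1D, clr2D and chp2D, where 759, 640 and 934 of all 6950 genes were higher. With the block in the first library series only, also added after seeing the data, 4, 5, 14 and 9 were higher in clr1D, clr2D, mit1D and chp2D, and 14 and 11 lower in clr1D and clr2D. In the same fit 1045, 900, 1388 and 1193 of all 6950 genes were higher in those 4 deletions. Lower were 1057 of all genes in clr1D and 778 in clr2D. The planned block changed no call in clr3D against wild type, while the block in the first series only added SPNCRNA.1305 as lower there (-0.27, adjusted p = 0.0482). The numbers do not pair mit1D and chp2D with wild type; with the block the mit1D differences of SPNCRNA.1304 and SPNCRNA.287 passed (adjusted p = 0.0387 and 0.026), as did the chp2D differences of SPBPB10D8.01, SPBPB10D8.02c, SPNCRNA.1307 and SPNCRNA.1304 (0.0125, 0.0112, 0.00778 and 0.0213).

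Leaving out each library in turn gave the following ranges. Higher genes numbered 0 to 4 for clr1D (4 without clr1D replicate 3, 2 without wild-type replicate 1), 0 to 0 for both clr2D and clr3D, 6 to 9 for mit1D, and 3 to 5 for chp2D. Of all genes, 541 were higher in clr1D without clr1D replicate 3 and 529 without wild-type replicate 1, against 631 with all libraries. Lower genes numbered 5 to 7 for clr1D (5 without wild-type replicate 3), 3 to 6 for clr2D (3 without wild-type replicate 1), 7 to 8 for clr3D, 1 to 3 for mit1D (1 without mit1D replicate 2 or wild-type replicate 3), and 2 to 4 for chp2D (2 without wild-type replicate 3). Without wild-type replicate 3, 403, 568 and 482 of all genes were lower in clr1D, mit1D and chp2D. Without wild-type replicate 1, 263 were lower in clr2D, and without mit1D replicate 2, 550 in mit1D. clr3D differed from mit1D in 13 to 17 genes and from the mean of clr1D and clr2D in 10 to 16, and the other pairs of deletions in 0 to 0. Of the recomputed fold changes of genes called and named by rule, 506 kept direction and call, 59 kept direction and lost the call, and 0 reversed. Over all genes, fits of only the groups compared called 296 higher and 213 lower in clr1D against 631 and 548, 179 and 113 in clr2D against 504 and 343, and 540 and 470 in clr3D against 989 and 944. Few reads stood behind the copied genes: apart from SPNCRNA.287 and SPNCRNA.1300, each row of the first 29 kb had at most 190 reads over 18 libraries.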
